A study of Mus musculus with 8 samples.

Results

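The mouse genome holds a large family of genes for potassium channels, whose symbols begin with Kcn, and their RNA was examined here in oocytes that lacked 2 deadenylases. All rows of the count table whose symbol is Kcn followed by letters and a number were taken, except the long noncoding RNA Kcnq1ot1. This gave 97 of 46078 genes. Of these, 77 encode pore-forming or modifier subunits, 16 encode auxiliary subunits, and 4 are antisense transcripts that carry the symbol of the channel gene they lie opposite (Kcnmb4os1, Kcnmb4os2, Kcnab3os and Kcnd3os). The rule used symbols only and no measured value.

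RNA-seq was performed on fully grown oocytes at the germinal vesicle (GV) stage, the stage of arrest before meiosis resumes, from CNOT7&8 KO and control mice. CNOT7&8 KO oocytes carried floxed alleles of Cnot7 and Cnot8 together with Zp3-Cre, and control oocytes carried the Zp3-Cre transgene, the only allele their label names. The Zp3 promoter drives Cre in growing oocytes, so deletion occurs after the primordial stage and only in the germ cell. Oocytes came from 4-week-old females of C57BL/6J background primed with PMSG, a gonadotropin that stimulates follicle growth, and cumulus cells were stripped with hyaluronidase. Each group had 4 libraries of 100 pooled oocytes each. The labels do not say whether libraries of a group came from separate animals, so p-values measure the spread between these libraries only, which may be technical.

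Cnot7 and Cnot8 are catalytic subunits of the CCR4-NOT complex, which shortens poly(A) tails of mRNAs. Potassium channels let potassium ions leave the cell along their concentration gradient, and so draw the membrane potential toward negative values. Voltage-gated channels (Kcna to Kcnd, Kcnh, Kcnq) open on depolarization, inward rectifiers (Kcnj) and 2-pore channels (Kcnk) carry current near rest, and other channels respond to calcium or sodium inside the cell (Kcnma, Kcnn, Kcnt). Modifier subunits (Kcnf, Kcng, Kcns, Kcnv) form no working channel alone and join Kcnb subunits, while auxiliary subunits (Kcnab, Kcne, Kcnip, Kcnmb) bind pore subunits and change their gating or traffic.

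The deepest control library had a total of 44092144 counts and the shallowest 14943671, and KO totals lay between 8639444 and 26784110. Values are given as CPM, counts scaled to a common library size after adjustment by TMM, a method that assumes most genes are equal between libraries. These data strain that assumption, as 31.2% of tested genes were higher in KO and 24.1% lower by the edgeR adjusted p alone. The TMM factors split by group, at 0.849 to 0.943 in control and 1.07 to 1.14 in KO libraries. The detection floor was set at 3 counts, which equalled between 0.0802 and 0.326 CPM, and such floors cover counting error only. Cnot8 was at 197, 163, 157 and 154 CPM in control libraries and at 33.1, 35.5, 36.0 and 36.1 CPM in KO libraries, 21.0% of the control mean (edgeR adjusted p = 8.2e-08). Cnot7 was at 1049, 900.2, 898 and 886 CPM in control libraries and at 749, 789, 622 and 717 CPM in KO libraries, 77.1% of the control mean (edgeR adjusted p = 0.0105), and with library size as the only scaling its log2 difference was -0.092 with an adjusted p of 0.385. Gene-level counts do not separate the floxed exons from the rest, so Cnot7 checks its deletion only in part. By immunoblot, the paper reports that both proteins were absent from KO oocytes. The 14 oocyte markers summed to between 22677 and 26078 CPM in control libraries and between 18561 and 21550 CPM in KO libraries. The 13 granulosa and cumulus markers were at a summed level of 128 to 177 CPM in control libraries and 219 to 273 CPM in KO libraries. None was at 0. Of the 12 tested, 6 were higher in KO by at least 2-fold at an adjusted p of at most 0.05. By these criteria 23.8% of all tested genes were higher. The share was 35.5% under a mean of 1 CPM, 35.7% between 1 and 10 CPM and 9.65% at 10 CPM or more. In CPM, Nr5a2 rose most, from 56.6 in control to 122 in KO. Inha was among the 6, but KO replicate 4, at 4.77 CPM, lay within its control range. Amh and Has2 had lower means in KO and did not pass the adjusted p. Cyp19a1 was lower by less than 2-fold, at 58.5 CPM in control and 31.3 CPM in KO (edgeR adjusted p = 0.000507). Of 10 neuronal markers, 7 were tested and 3 were higher in KO by at least 2-fold (Rbfox3, Gad1 and Slc17a7, all under 1 CPM). The sums were 271 to 557 CPM in control and 251 to 400 CPM in KO. By less than 2-fold, Map2 was higher (38.1 CPM in control, 66.2 CPM in KO, edgeR adjusted p = 8.02e-05). Tubb3, the most abundant of the 10, was lower (368 and 212 CPM, edgeR adjusted p = 0.0231), with overlap of the groups. Of 7 blood and immune markers, Ptprc and Cd68 were tested and higher in KO, with sums of 0.749 to 1.83 CPM in control and 3.04 to 5.12 CPM in KO, and 4 hemoglobin genes were at 0 in every library. The part of such transcripts in the changes described next was not tested. Control replicate 1 and KO replicate 4 deviated from their groups in the same direction (correlation of deviations across genes 0.37), and counts are also given without both. In pooled oocytes, fewer cells that hold a transcript and less of it per cell cannot be told apart.

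CNOT7&8 KO oocytes differed from control oocytes in which potassium channel RNAs they held. An 18.3-fold rise of Kcnj13, an inward rectifier, and rises of the voltage-gated subunits Kcnv2 and Kcnd3 stood beside falls of Kcnq1 to 40.1% and of Kcnn2 to 44.2% of the control mean. Of the 97 genes, 51 passed the filter of at least 0.2 CPM in 2 libraries, 14 rose at least 2-fold at an adjusted p of at most 0.05, 5 fell by these criteria, and 32 met neither. The 14 made up 27.5% of the tested potassium channel genes, against 23.8% of all 19241 genes tested, and the 5 made up 9.80%, against 6.56%. The shares thus stood near those of the whole transcriptome. The median log2 fold change was 0.59 over the tested potassium channel genes (0.56 with genes at 0 in all controls set to their lower bound) and 0.12 over all tested genes. These medians were not matched for level. A mean under 1 CPM was found in 22 of the 51 tested potassium channel genes and in 5482 of all 19241. With library size as the only scaling, which moved all genes by a median of 0.29, 18 rose and 1 fell, and TMM computed from genes at or above 10 CPM gave the same counts. Without control replicate 1 and KO replicate 4, 15 rose, 13 of them among the 14, and 4 fell.

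The calls differed with the level of the gene, as they did across the transcriptome. Under a mean of 1 CPM, 9 of 22 tested channel genes rose, against 35.5% of all genes at that level, and 2 fell, against 3.27%. Between 1 and 10 CPM, 4 of 17 rose and 1 fell, against 35.7% and 8.23% of all genes. At 10 CPM or more, 1 of 12 rose and 2 fell, against 9.65% and 7.68%. The genes that rose were therefore mostly low in control oocytes, with a median control level of 0.279 CPM and a highest of 2.66 CPM, while those that fell had a median of 6.46 CPM. Of the tested genes, 10 had fewer than 2 control libraries over the filter and entered through KO libraries. Among these were 6 of the 14 that rose, namely Kcnc2, Kcnh7, Kcnmb1, Kcnj16, Kcna4 and Kcnc4. They were tested because of the group in which they are high, which limits their p-values and intervals. Kcnn1, which fell, passed the filter in control libraries only. Among the 41 genes with at least 2 control libraries over the filter, 8 rose. The shares of all tested genes under these 2 restrictions were not computed, so neither count can be set against the transcriptome.

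**Figure D1:**
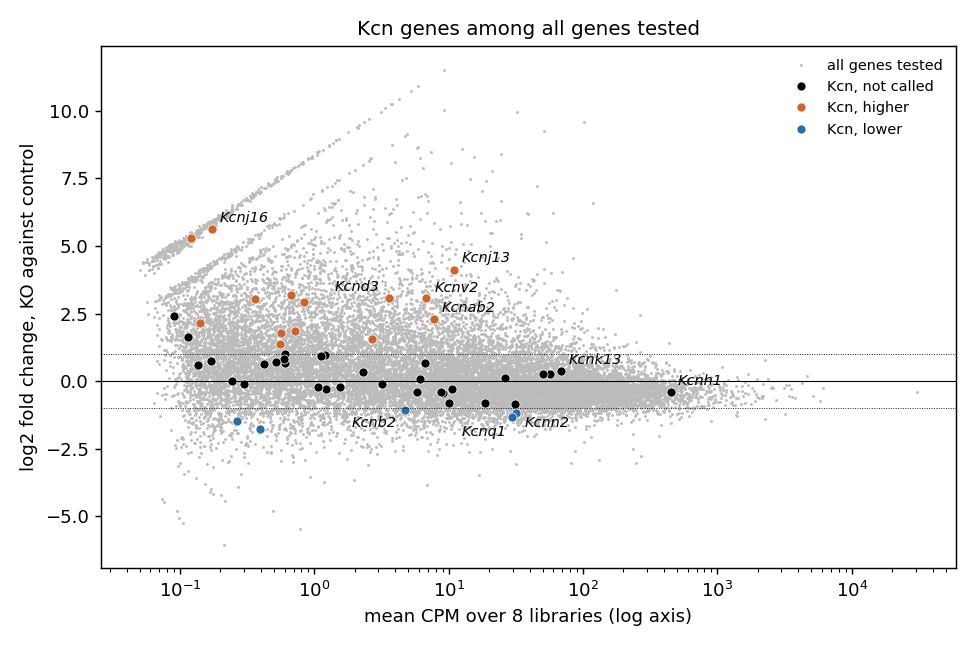
Log2 fold change of KO against control plotted over mean CPM of 8 libraries (log axis) for all tested genes (grey) and for the 51 tested potassium channel genes (orange, called higher; blue, called lower; black, not called). Dotted lines mark 2-fold changes. Kcnj13 is the only potassium channel gene called higher at 10 CPM or more, and Kcnh1 stands far to the right at the highest level.

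By the adjusted p alone, 16 genes were higher, against 31.2% of all tested genes, and 8 were lower, against 24.1%. In 15 genes, every KO library lay above every control library, against 27% of all tested genes, and in 7 every KO library lay below, against 21.4%. For such genes the exact two-sided permutation test over the 70 assignments of 8 libraries gives p = 0.0286, the smallest that it can give. In 3 of the 15 the separation rests on 1 or 2 counts. Kcna4 had 1 count in each control library and 1 in KO replicate 1, the shallowest library. From controls at 0, Kcnj16 had 1 and 2 counts in KO replicates 3 and 4, and Kcnc4 had 1 in KO replicate 1.

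By CPM, which is not adjusted for transcript length, Kcnh1 held more than all other members together in every control library. It encodes EAG1, the ether-a-go-go channel, a voltage-gated pore subunit expressed mainly in brain, and lies at chr1:192190774-192510159 on the plus strand of GRCm38. Control libraries held 577, 512, 437 and 524 CPM and KO libraries 409, 361, 389 and 386 CPM. All KO libraries lay below all control libraries. The log2 fold change was -0.41 ± 0.11 (SE, n = 4 per group; edgeR adjusted p = 0.0063), which did not reach 2-fold, and the adjusted p was 0.253 with library size as the only scaling and 0.142 with TMM from genes at or above 10 CPM. Its share of the summed CPM of all 97 genes was 51.7% to 57.0% in control libraries. In KO libraries the share was 45.7% to 49.2%, without overlap. No scaling of libraries can alter this share, but CPM grows with transcript length. The share was not computed per kb of exon. The summed level was 938 ± 68.7 CPM (SD, n = 4) in control and 817 ± 35.8 CPM in KO, but this order turned with library size as the only scaling (849 against 901 CPM) and with TMM from genes at or above 10 CPM (860 against 891 CPM). Without Kcnh1 the sums were 425.5 ± 16.9 and 430.7 ± 23.1 CPM.

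Among the 3′UTR elements that the study's methods searched for is the cytoplasmic polyadenylation element UUUUAU, at which the protein CPEB binds and can lengthen poly(A) tails when it lies near the polyadenylation signal. The longest annotated 3′UTR of Kcnh1 holds 3 copies, the last 2 lying 31 and 6 bases from its end. They are shown because Kcnh1 is the most abundant transcript of the family. Windows are from the GENCODE vM21 transcript, at chr1:192509094-192509099, chr1:192510123-192510128 and chr1:192510148-192510153 (plus strand, positions of the motif), with the motif in capitals and T for U.
Kcnh1 site 1: actaattgtaTTTTATtttgccataa
Kcnh1 site 2: aaaagtttaaTTTTATttattatggt
Kcnh1 site 3: taataaactaTTTTATatgtga
Of the 50 tested potassium channel genes with an annotated 3′UTR, 27 (54.0%) hold this motif, against 8504 of 15132 tested genes (56.2%). It was found in 6 of the 14 genes that rose, 3 of the 5 that fell and 18 of the 31 others. Kcnb2 holds 17 copies in a 3′UTR of 12121 bases, Kcnh7 holds 11, and Kcnd3 and Kcnt2 hold 7 each, while Kcnj13, Kcnv2, Kcnab2 and Kcnq1 hold none. The longest annotated 3′UTR of Kcnj13 has only 53 bases, so the lack of the motif there says little. A match of these letters is a description of the sequence only, and long 3′UTRs hold more of them.

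**Figure D2:**
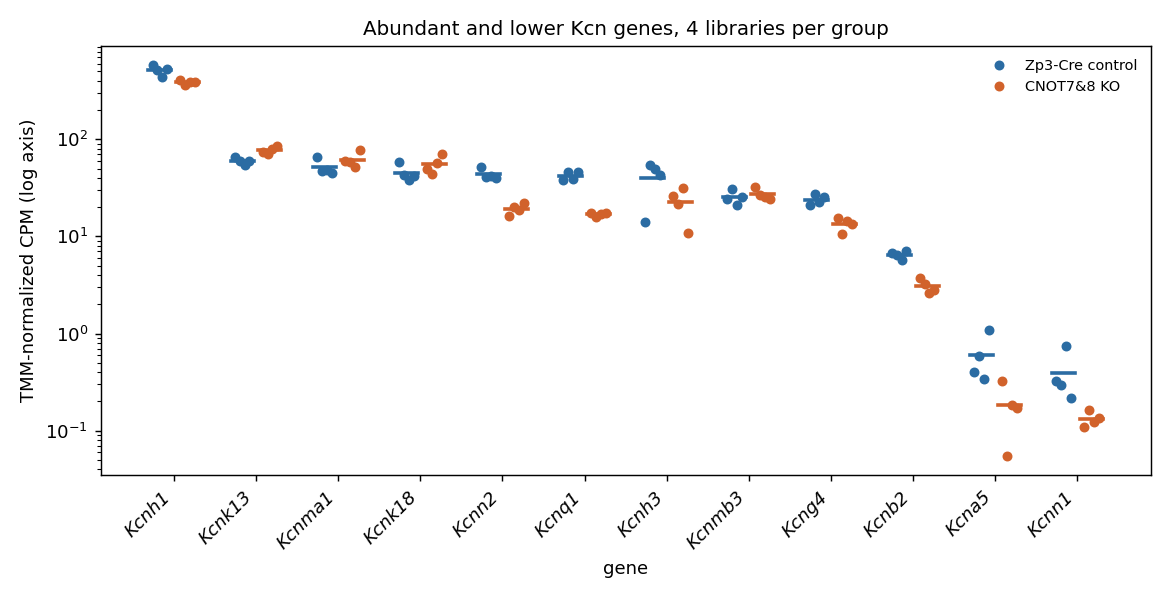
TMM-normalized CPM (log axis) of each library for the most abundant potassium channel genes, the genes called lower and the most abundant genes of their role classes, with the control libraries in blue, the KO libraries in orange and group means as bars. Kcnh1 lies between 437 and 577 CPM in control, and the KO points of Kcnn2, Kcnq1, Kcng4 and Kcnb2 lie below all their control points.

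The other Kcnh genes had lower levels and spread more between libraries. Kcnh3, which encodes a channel of the ELK group, was at 13.98, 54.5, 49.1 and 43.1 CPM in control libraries and at 26.0, 21.6, 31.6 and 10.8 CPM in KO libraries. Control replicate 1 was the lowest control library and overlapped the KO range. The log2 fold change was -0.84 ± 0.38 (edgeR adjusted p = 0.0795), and without control replicate 1 it was -1.13 (adjusted p = 0.00316). Kcnh7, which encodes a channel of the ERG group to which the cardiac channel Kcnh2 belongs, rose from 0.118 ± 0.082 CPM (SD, n = 4) to 1.22 ± 0.403 CPM, a log2 fold change of 3.18 ± 0.52 (edgeR adjusted p = 0.000301). Control libraries held 0 to 0.187 CPM and KO libraries 0.652 to 1.59 CPM. Kcnh7 entered the test through KO libraries, where it is high, which limits this p-value. Kcnh2, named after its values were seen, was at 12.9 ± 4.19 CPM in control and 7.40 ± 2.25 CPM in KO, and its groups overlapped (log2 fold change -0.80 ± 0.27, edgeR adjusted p = 0.0249). Without KO replicate 3 its log2 fold change was -1.02.

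Among Kcnq genes, 1 of 4 tested passed and it fell. Kcnq1 encodes the pore of the slow delayed rectifier of the heart, which also serves potassium recycling in epithelia, and is expressed from the maternal allele in many embryonic tissues. It lies at chr7:143106362-143427042 on the plus strand. Control libraries held 38.3, 45.6, 39.2 and 45.9 CPM and KO libraries 17.4, 16.04, 16.8 and 17.5 CPM. The KO libraries lay close together and below every control library, with a log2 fold change of -1.32 ± 0.12 (edgeR adjusted p = 4.61e-06). It was the only member called lower under every scaling tried. Kcnq1ot1, the noncoding RNA that lies on the opposite strand and shares 121 exon bases with it, was at 2.27, 0.987, 2.72 and 0.728 CPM in control and at 15.4, 9.996, 4.69 and 1.499 CPM in KO (log2 fold change 2.17 ± 0.60, edgeR adjusted p = 0.00914), with overlap between the groups.

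All 8 genes of channels activated by calcium, sodium or pH were tested, and 2 fell and 1 rose. Kcnn2 encodes SK2, a small-conductance channel gated by calcium through calmodulin, and lies at chr18:45268860-45686024. It was at 51.8, 41.4, 41.6 and 40.3 CPM in control libraries and at 16.3, 19.9, 18.9 and 22.3 CPM in KO libraries. No KO library reached the lowest control, and the log2 fold change was -1.17 ± 0.14 (edgeR adjusted p = 2.9e-05), which with library size as the only scaling was -0.88 at an adjusted p of 0.000176 and so fell short of 2-fold. Kcnn1, the closely related SK1, fell from 0.396 ± 0.239 to 0.133 ± 0.024 CPM at an edgeR adjusted p of 0.0489, and this call was lost on leaving out any library but control replicate 4 (adjusted p from 0.0591 to 0.162). Kcnma1, the pore of the large-conductance calcium-activated channel, was at 66.1, 47.2, 47.8 and 44.8 CPM in control and at 59.5, 58.2, 51.7 and 76.9 CPM in KO (log2 fold change 0.26 ± 0.16, edgeR adjusted p = 0.19). Control replicate 1 stood above the other controls and within the KO range. Kcnt2, a sodium-activated channel, rose from 0.306 ± 0.223 to 1.12 ± 0.407 CPM (log2 fold change 1.84 ± 0.51, edgeR adjusted p = 0.0083).

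Of the inward rectifiers, 4 of 15 were tested, 2 rose, and 5 had no count in any library. Kcnj13 encodes a weakly rectifying channel known from retinal pigment epithelium and other transporting epithelia, and lies at chr1:87386363-87394729 on the minus strand, inside Gigyf2. Control libraries held 1.60, 0.938, 1.43 and 0.583 CPM, and KO libraries 23.5, 22.3, 16.4 and 21.2 CPM. Every KO library was over 10 times the highest control, and the log2 fold change was 4.13 ± 0.27 (edgeR adjusted p = 2.87e-07). By level per length, in CPM per kb of exon, Kcnj13 moved from rank 17 of the family in control (0.896) to rank 3 in KO (16.4), behind Kcnh1 and Kcnk13. Its annotated exons hold 1270 bases. Gigyf2 exons on the opposite strand cover 49.1% of its exon bases, the labels and the study's methods both name a stranded library kit, and the strand setting of the counting is not given in the sources used here. Gigyf2 was at 178 ± 20.7 CPM in control and 208 ± 23.1 CPM in KO (log2 fold change 0.22 ± 0.12, edgeR adjusted p = 0.128). Kcnj16, a subunit that joins Kcnj10, was at 0 in all control libraries and at 0.760, 0.494, 0.0617 and 0.0681 CPM in KO libraries, at least 2.13-fold higher against a floor of 3 counts per library (edgeR adjusted p = 0.0126). This gene entered the test through KO libraries and was chosen after its values were seen. Without KO replicate 1 or KO replicate 2 it no longer passed the filter. KO replicates 3 and 4 lay under their own floors, and without KO replicate 1 the bound was 1.28-fold. Summed over all 15 genes, inward rectifier RNA was 2.54 ± 0.599 CPM in control and 22.5 ± 2.996 CPM in KO, and nearly all of the latter was Kcnj13.

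**Figure D3:**
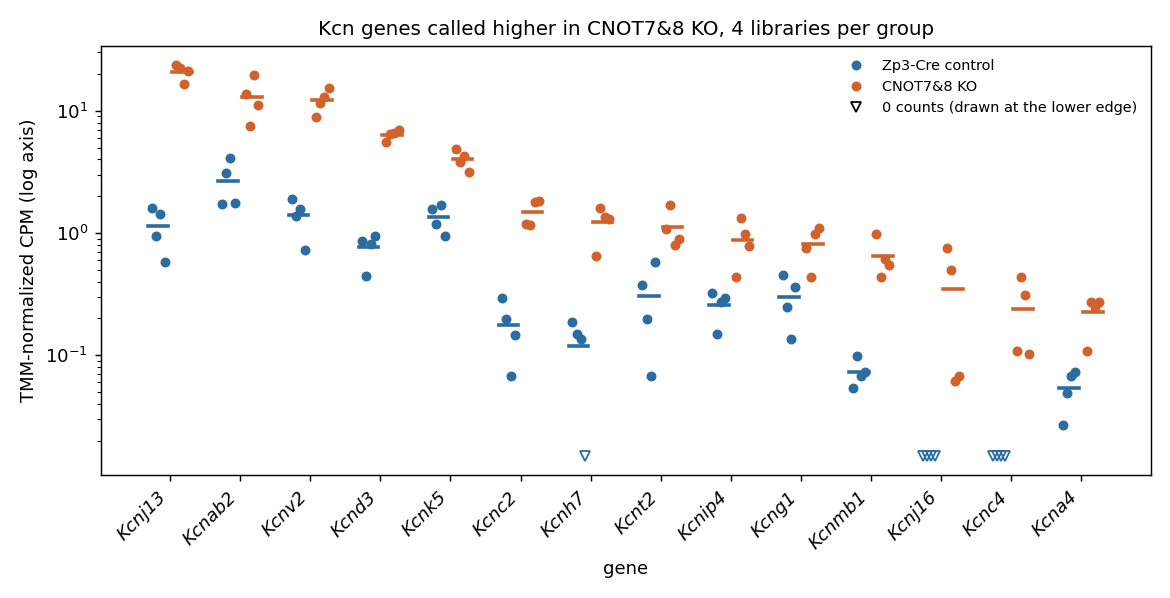
TMM-normalized CPM (log axis) of each library for the 14 potassium channel genes called higher in KO, with control libraries in blue, KO libraries in orange, group means as bars, and libraries with 0 counts as open triangles at the lower edge. The KO points lie above the control points for all genes but Kcng1, and Kcnj16 and Kcnc4 were at 0 in all control libraries. The lowest KO points of Kcna4, Kcnj16 and Kcnc4 stand for 1 or 2 counts.

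Promoters of genes that rose are shown to let their sequences be compared with that of Kcnh1. The 100 bases before the start were read from RefSeq on GRCm38.p6, in which 70 of the 97 genes had an entry, and are written on the strand of the gene. Capitals mark the letters TATAA of the TATA box, the motif TAATTG of homeobox proteins such as Nobox, and the motif GGGCGG of Sp1 or its complement where it lies on the other strand. The stretches are chr1:87394730-87394829 (Kcnj13, minus strand), chr3:105451790-105451889 (Kcnd3, plus strand), chr14:20181783-20181882 (Kcnk5, minus strand) and chr1:192190677-192190776 (Kcnh1, plus strand).
Kcnj13: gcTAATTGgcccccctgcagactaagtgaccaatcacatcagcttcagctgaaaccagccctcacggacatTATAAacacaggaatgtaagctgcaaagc
Kcnd3: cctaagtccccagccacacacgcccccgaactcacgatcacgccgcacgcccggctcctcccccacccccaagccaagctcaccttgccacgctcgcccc
Kcnk5: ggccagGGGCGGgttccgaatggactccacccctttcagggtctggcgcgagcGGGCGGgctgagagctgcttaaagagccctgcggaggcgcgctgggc
Kcnh1: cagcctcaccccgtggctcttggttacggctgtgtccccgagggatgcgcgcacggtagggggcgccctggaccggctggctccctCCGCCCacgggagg
The Kcnj13 promoter holds TATAA between 45 and 16 bases before the start, as 3.89% of the 32851 promoters in the table do, and TAATTG, which 7.17% hold on either strand within 250 bases. GGGCGG occurred on either strand in 32.7% of all promoters. Of the 39 tested potassium channel genes with a promoter, 22 (56.4%) hold GGGCGG, against 56.5% of all tested genes, 2 hold TATAA and 3 hold TAATTG. A motif match describes these letters and shows no binding.

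The 2-pore channels, which set resting conductance, had the second highest summed CPM of all classes, and 1 of 6 tested members rose. Kcnk5, an acid-sensitive channel, was at 1.58, 1.18, 1.70 and 0.947 CPM in control and at 4.89, 3.79, 4.26 and 3.17 CPM in KO. The groups did not overlap (log2 fold change 1.54 ± 0.26, edgeR adjusted p = 0.000329). Kcnk13, which encodes THIK-1 and had the second highest level per length (19.3 CPM per kb of exon in control, against 69.9 for Kcnh1), was at 65.5, 60.3, 53.9 and 60.3 CPM in control and at 74.0, 70.9, 79.3 and 85.7 CPM in KO. All KO libraries lay above all controls, and the log2 fold change of 0.37 ± 0.11 passed the adjusted p (0.0146 by edgeR) but not the 2-fold limit. Kcnk18, which encodes TRESK, was at 45.5 ± 9.18 CPM in control and 55.1 ± 11.3 CPM in KO (log2 fold change 0.28 ± 0.17, edgeR adjusted p = 0.194). The summed level of the 14 genes was 113 ± 12.8 CPM in control and 144 ± 17.9 CPM in KO, higher in KO under every scaling, though the libraries overlapped under TMM and RLE.

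Among the pore subunits Kcna to Kcnd, 4 of 9 tested rose and 2 fell. Kcnd3, which carries a transient A-type current, was at 0.855, 0.444, 0.817 and 0.947 CPM in control and at 5.54, 6.43, 6.54 and 6.98 CPM in KO. This was an 8.32-fold rise with no overlap (log2 fold change 3.06 ± 0.25, edgeR adjusted p = 1.75e-06). Kcnc2, a rapidly deactivating channel of fast-spiking neurons, rose from 0.176 ± 0.095 to 1.49 ± 0.370 CPM (log2 fold change 2.91 ± 0.42, edgeR adjusted p = 0.000119). Kcnc2 entered the test through KO libraries, where it is high, which limits this p-value. Kcnc4 and Kcna4, both of rapidly inactivating currents and named after their values were seen, also rose, Kcnc4 at least 1.47-fold from 0 in every control library and Kcna4 with a ratio of pooled counts of 5.31 (95% interval 1.75 to 21.6, counting error only). Both entered the test through KO libraries. Kcnc4 no longer passed the filter without KO replicate 2 or KO replicate 3, and Kcna4 lost its call without control replicate 1 (edgeR adjusted p = 0.0644). Kcnb2, a delayed rectifier, was at 6.68, 6.37, 5.72 and 7.07 CPM in control and at 3.69, 3.24, 2.59 and 2.79 CPM in KO. No KO library reached the lowest control (log2 fold change -1.08 ± 0.19, edgeR adjusted p = 0.000479), but the change was less than 2-fold under 3 of the other scalings, with -0.80 when only library size was used, and without KO replicate 3 (-0.99). Kcna5, the delayed rectifier of the atrium, fell from 0.607 ± 0.341 to 0.184 ± 0.111 CPM (log2 fold change -1.76 ± 0.59, edgeR adjusted p = 0.0238), a call lost without control replicate 4 (adjusted p = 0.0783), KO replicate 2 (0.0708) or KO replicate 4 (0.056).

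Of the modifier subunits, 2 of 6 tested rose and none fell. Kcnv2, a modifier of Kcnb channels in photoreceptors, was at 1.90, 1.38, 1.57 and 0.728 CPM in control and at 8.90, 11.5, 13.0 and 15.2 CPM in KO. The lowest KO library was well above the highest control (log2 fold change 3.08 ± 0.27, edgeR adjusted p = 2.83e-06). Kcng1 rose from 0.300 ± 0.139 to 0.819 ± 0.288 CPM with overlap of the groups (log2 fold change 1.38 ± 0.46, edgeR adjusted p = 0.024), and the call was lost without control replicate 2, control replicate 3 or KO replicate 4 (adjusted p = 0.0595, 0.0565 and 0.0674). Kcng4, the most abundant modifier, was at 20.8, 27.4, 22.4 and 25.3 CPM in control and at 15.6, 10.7, 14.5 and 13.3 CPM in KO. The groups did not overlap, and the log2 fold change of -0.83 ± 0.16 passed the adjusted p (0.000869 by edgeR) without reaching 2-fold.

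Auxiliary subunits were represented by 9 tested genes, of which 3 rose and none fell. Kcnab2, a cytoplasmic beta subunit of Kcna channels with an aldo-keto reductase fold, was at 1.71, 3.11, 4.08 and 1.75 CPM in control and at 13.7, 7.47, 19.4 and 11.2 CPM in KO. The KO libraries varied more than those of Kcnj13 but all exceeded the controls (log2 fold change 2.29 ± 0.34, edgeR adjusted p = 0.000136). Kcnip4, a calcium-binding partner of Kcnd channels, rose from 0.258 ± 0.076 to 0.881 ± 0.370 CPM (log2 fold change 1.76 ± 0.45, edgeR adjusted p = 0.00566). Kcnmb1, the smooth-muscle beta subunit of the channel formed by Kcnma1, was named after its values were seen. It had 1 or 2 counts in each control library, under the floor, and entered through KO libraries. Kcnmb1 rose with a ratio of pooled counts of 8.45 (95% interval 3.58 to 24.3, counting error only). Its relative Kcnmb3, the most abundant auxiliary gene, was at 24.1, 30.5, 21.0 and 25.5 CPM in control and at 31.9, 26.7, 25.7 and 24.4 CPM in KO (log2 fold change 0.10 ± 0.15, edgeR adjusted p = 0.591). The ranges overlapped. Kcnip2, also chosen after its values were seen, was at 5.07 ± 0.890 CPM in control and 8.20 ± 1.29 CPM in KO (log2 fold change 0.68 ± 0.19, edgeR adjusted p = 0.0104).

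**Figure D4:**
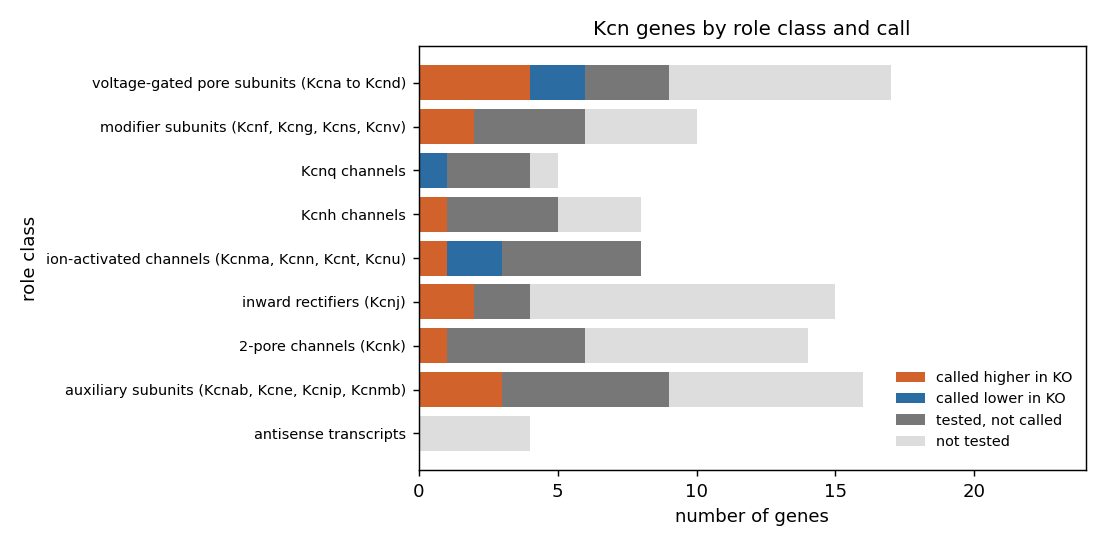
Number of potassium channel genes in each role class (horizontal bars) that were called higher in KO (orange), called lower (blue), tested and not called (dark grey) or not tested (light grey). Classes with calls in both directions were the pore subunits Kcna to Kcnd and the ion-activated channels.

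Over role classes, the order of summed levels between the groups was the same under TMM, library size only, RLE, upper quartile and TMM from genes at or above 10 CPM for 6 of the 8 classes of channel subunits. Kcnh and Kcnq genes summed lower in KO, from 576 ± 46.0 to 425 ± 22.6 CPM and from 45.2 ± 3.53 to 20.9 ± 0.961 CPM. For Kcnh genes the libraries overlapped with library size only (521 and 469 CPM). They also overlapped with TMM from genes at or above 10 CPM (528 and 464 CPM). Pore subunits Kcna to Kcnd (10.8 ± 1.48 to 15.3 ± 0.887 CPM), inward rectifiers, 2-pore channels and auxiliary subunits (49.7 ± 1.95 to 65.3 ± 6.11 CPM) summed higher. Modifier subunits (36.7 ± 2.72 and 35.4 ± 3.76 CPM) and ion-activated channels (104 ± 13.8 and 88.6 ± 11.8 CPM) changed order with the scaling.

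**Figure D5:**
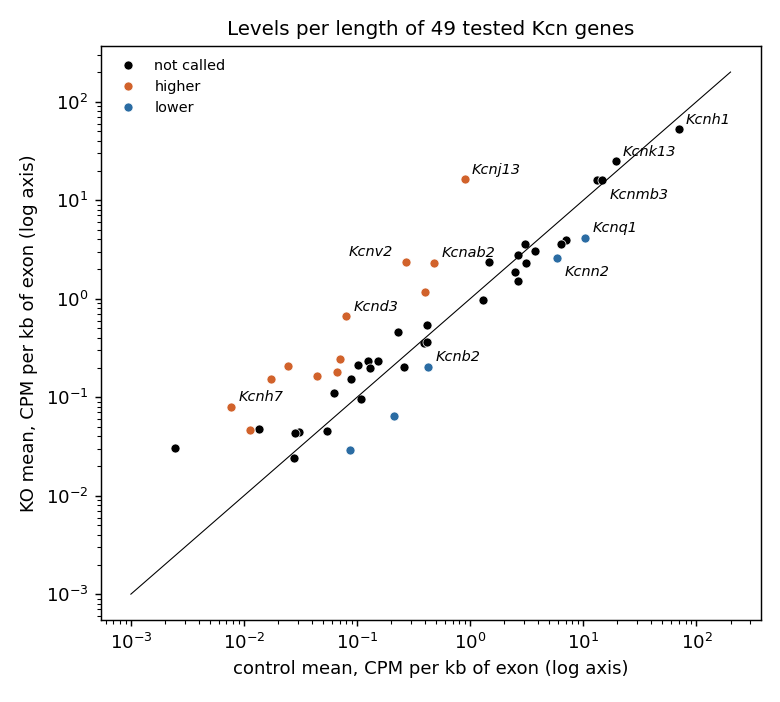
Mean level per length, in CPM per kb of exon (log axes), in KO against control for the 49 tested potassium channel genes with counts in both groups, with the line of equality; the 2 tested genes at 0 in all control libraries are left out. Kcnh1 and Kcnk13 lead in both groups, and Kcnj13 lies farthest above the line among genes over 10 CPM per kb in KO.

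The remaining 46 genes were too low to test. Among them 12 had no count in any library, and 34 had at least 1 count but never more than 8 in a library. Together they held 30 counts of 96664269 in control libraries and 133 of 66066815 in KO libraries. Members with at least 1 count numbered 46 to 58 per control library and 61 to 74 per KO library. Of all genes in the table, 41.1% to 46.6% had a count in control libraries and 44.5% to 52.3% in KO libraries. The numbers of members did not overlap between the groups, while the shares of all genes did. Whether the higher number in KO is particular to potassium channel genes was not tested.

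Genes that work with potassium channels were counted in the same fit. Of 6 tested partner proteins of channels, 1 rose, Lrrc55, a gamma subunit of the channel formed by Kcnma1. Neither of 2 tested hyperpolarization-activated channels and none of 8 tested cation-chloride cotransporters passed both criteria. Among other ion channels, 4 of 10 tested sodium channel genes rose and none fell, 3 of 18 calcium channel genes rose and 1 fell, and 10 of 19 chloride channel genes rose and 1 fell, beside 23.8% and 6.56% of all tested genes. Rest, which represses neuronal channel genes, was at 355 CPM in control and 405 CPM in KO and was not called. Of the 8 genes of Rest and its corepressors, 3 rose and none fell by both criteria. By the adjusted p alone, 4 were higher and 2 lower. Of the 2, Hdac2 went from 117 to 59.2 CPM, just short of 2-fold (log2 fold change -0.98, edgeR adjusted p = 0.000164).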

How the data were processed

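RNA-seq of GV oocytes from 4 Zp3-Cre control and 4 CNOT7&8 KO libraries was analyzed, with groups and replicate numbers taken from the labels. The authors depleted ribosomal RNA, ran the nf-core/rnaseq pipeline on read pairs from a stranded library kit, with mapping to GRCm38 by STAR 2.6.1d, and deposited raw counts per gene without normalization. The pipeline's counting tool, annotation and strand setting are not given in the sources used here. Counts were analyzed with R 4.3.3 and edgeR 4.0.16: genes with at least 0.2 CPM in 2 libraries (19241 of 46078) were scaled by TMM and tested with the quasi-likelihood test, with Benjamini-Hochberg adjustment over all tested genes. Genes were called where the adjusted p did not exceed 0.05 and the change reached 2-fold. Single values were also compared by exact permutation. Alternatives were edgeR's exact test, DESeq2 1.42.0, other scalings, filters and thresholds, a replicate block and leaving out libraries. Positions, exon lengths and 3′UTRs came from GENCODE vM21, promoters from RefSeq, read with Python 3.11.15. Genes named with values were the most abundant members, overall and per role class, and the most abundant called ones. The members and lists were chosen with earlier results of these data known.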

Additional observations from a re-analysis of the deposited data

Results flagged for a closer look

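In groups of 4 libraries, a library was singled out where its gap to the nearest other, divided by the range of the group, exceeded Dixon's critical value. Of 70 groups examined, 4 did so, and chance alone gives about 1 in 20, or 3.5. Control replicate 1 was high for 3 genes. Kcnma1 was at 66.1 CPM there and at 44.8 to 47.8 CPM in the other controls. Kcnn2 was at 51.8 CPM there and at 40.3 to 41.6 CPM in the others. Cnot7 was at 1049 CPM there and at 886 to 900.2 CPM in the others. In KO replicate 1, Kcna4 was at 0.109 CPM, against 0.247 to 0.275 CPM in the other KO libraries.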

How the results depend on the processing

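The count of potassium channel genes higher in KO was 14 and that of genes lower was 5. On leaving out single libraries, or control replicate 1 and KO replicate 4 together (an alternative chosen after seeing the data), the counts ranged from 12 to 15 and from 3 to 5. The lower count was 1 with library size only and with TMM from genes at or above 10 CPM, 3 with upper quartile scaling, 3 with a filter of 1 CPM in 4 libraries and 8 by adjusted p without the 2-fold limit. That filter, which left 30 genes tested, gave 8 higher. For genes of partner, transporter and comparison families, 19 were higher and 2 lower. Their lower count was 1 with library size only, upper quartile scaling and TMM from genes at or above 10 CPM, 0 with the filter of 1 CPM in 4 libraries, 9 without the 2-fold limit, and 1 to 3 on leaving out libraries. Cnot7 had a log2 fold change of -0.092 with library size only and -0.12 with TMM from genes at or above 10 CPM, neither past the threshold. Kcnk1 was at -0.015 without control replicate 1 and KO replicate 4, opposite in sign to 0.081 in the full set, and ranged up to 0.248 on leaving out single libraries. The causes were not tested.

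Same-numbered libraries did not deviate together (correlations of deviations from -0.12 to 0.11), so the numbers do not pair them. With the replicate number as a block, 14 were higher, 13 of them shared, and 4 lower. Kcna4 and Kcnn1 lost their calls and Kcnq5 gained one. Not every number had its own pair as the best match. Among genes under 1 CPM, depth limits what can be detected.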
